A study of Mus musculus with 2 samples.

Results

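In polyadenylated RNA of the mouse ovary, 20337 contigs were covered by reads while the opposite strand of the same stretch was covered as well. A contig is a stretch of 1 strand of the genome that reads cover, and the authors' contig table lists 667197 of them on build mm9 with 1 signal level each. Members were chosen by contig coordinates: a contig was taken when it was at least 200 and under 3000 bases long and shared at least 100 bases with a contig of the opposite strand that was itself at least 200 bases long. Members made up 3.05% of all contigs and 6.11% of the 332847 contigs of that length. Contigs exist only where reads were found, so it was read coverage on both strands that chose them. They lay almost evenly on the plus strand (10185) and the minus strand (10152), and they held 6.81% of the 14093706259 sequenced bases of the table.

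The RNA came from ovaries of 8-week-old female C57BL/6J mice, described as littermates, and was measured in 2 libraries of 1 group. Ribosomal RNA had been removed, and polyadenylated RNA longer than 200 nucleotides was taken. Libraries kept the strand and were read 76 bases from each end. The contig and junction tables hold 1 value for the series and none per library, so no replicate error can be given for a contig, no test was possible, and every contig value below is a description.

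Both strands of a stretch of DNA can be transcribed. Neighbouring genes that point away from each other can start from 1 stretch of promoter and overlap at their 5′ ends (head to head). Neighbours that point toward each other can run into each other at their 3′ ends (tail to tail), and many active promoters and gene bodies also give rise to antisense RNA, some of it spliced and polyadenylated. Such antisense transcripts are often named after the gene they face, with the ending os for opposite strand.

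Some pairs of protein-coding genes have starts that lie close together on opposite strands. The stretch between both RefSeq starts is printed for 6 head-to-head gene pairs with much RNA on both strands. They have the highest level on the weaker strand among those whose RefSeq starts lie at least 20 bases apart and within 1 promoter window. The printed bases separate the RefSeq starts only. In GENCODE M21, exons of both genes share 488 bases at Yrdc/1110065P20Rik, 148 at Romo1/Nfs1 and 54 at Trmt2a/Ranbp1. They share 0 at Rpl7a/Med22, Ssr4/Idh3g and Lrrc45/Cenpx. Sequences are from RefSeq on GRCm38.p6, plus strand, 5′ to 3′. Each runs from the base after the start of the minus-strand gene to the base before the start of the plus-strand gene. Capitals mark 4 motifs searched on both strands, none of which overlaps another here. They are the CCAAT box, read as ATTGG on the other strand, the GC box GGGCGG, read as CCGCCC, the TATA box TATAAA, read as TTTATA, and the ETS-type motif CCGGAA, read as TTCCGG. The intervals are chr4:124850731-124850758, chr2:26910643-26910806, chrX:73786898-73787022, chr2:156144187-156144232, chr16:18248695-18248882 and chr11:120713809-120713952, in the order printed.
Yrdc/1110065P20Rik: gttgcgtccgtgcgtcacttcctcccgg
Rpl7a/Med22: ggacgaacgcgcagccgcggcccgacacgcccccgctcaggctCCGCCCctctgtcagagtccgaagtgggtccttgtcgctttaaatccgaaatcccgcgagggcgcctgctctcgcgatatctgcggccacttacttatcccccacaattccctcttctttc
Ssr4/Idh3g: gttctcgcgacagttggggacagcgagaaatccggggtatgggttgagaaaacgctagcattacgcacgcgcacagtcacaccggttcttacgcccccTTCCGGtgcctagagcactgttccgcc
Romo1/Nfs1: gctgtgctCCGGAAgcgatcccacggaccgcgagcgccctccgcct
Trmt2a/Ranbp1: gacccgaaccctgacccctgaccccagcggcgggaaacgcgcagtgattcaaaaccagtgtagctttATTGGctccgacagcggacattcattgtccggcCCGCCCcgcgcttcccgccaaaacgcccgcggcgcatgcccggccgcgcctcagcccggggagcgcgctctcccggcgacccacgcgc
Lrrc45/Cenpx: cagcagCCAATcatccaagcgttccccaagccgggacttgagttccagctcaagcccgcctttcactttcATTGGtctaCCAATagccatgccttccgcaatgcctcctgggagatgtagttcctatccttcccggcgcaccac
The shortest stretch, between Yrdc (which makes a modified base of transfer RNA) and 1110065P20Rik, was 28 bases long and held 0 matches to the 4 motifs. The contigs tied to these genes, on mm9, stood at a level of 34.6 for Yrdc and 33.4 for the other. No coordinate was carried between the builds, so whether contigs cover the printed bases was not tested. The longest, 188 bases between Trmt2a (a transfer RNA methyltransferase) and Ranbp1 (a partner of the GTPase Ran), held 1 CCAAT and 1 GGGCGG match at contig levels of 15.4 and 22.9. The stretch between Lrrc45 (a centrosome linker protein) and Cenpx (a kinetochore protein) held 3 CCAAT matches, at levels of 22.7 and 12.6. The stretches of Ssr4/Idh3g and Romo1/Nfs1 each held 1 CCGGAA match, and that of Rpl7a/Med22 held 1 GGGCGG match. None of the 6 stretches held TATAAA on either strand. A match describes the letters only.

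A wider set gives the same motifs a background. Promoter windows of 300 bases (250 before the start and 50 after) were found in RefSeq for 321 of the 406 genes of the head-to-head gene pairs, defined below, in which both genes are protein-coding. GGGCGG stood in 70.1% of them, CCGGAA in 41.1%, CCAAT in 33.6% and TATAAA in 4.36%. Among all 27025 promoter windows of the table the shares were 35.9%, 15.2%, 37.9% and 14.2%. Among the 10369 protein-coding genes with a window and a TPM of at least 1 in both libraries, they were 64.5%, 26.6%, 37.6% and 6.95%. The median GC content was 65.7% in the head-to-head set and 61.0% in the expressed set, with a median of 27 and 20 CpG per window. Genes of tail-to-tail pairs of the same kind (141 windows) had GGGCGG in 58.2%, CCGGAA in 34.0%, CCAAT in 44.0% and TATAAA in 8.51%. Facing windows of 1 head-to-head pair share bases, so its genes are not independent, and CCGGAA was added to the search after the letters had been seen.

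Level 1 in the contig table corresponded to 14.3 sequenced bases per base of contig (14.2 to 14.4 over all contigs), so the level is an average of coverage over the whole contig and does not resolve the overlap itself. Members had a median length of 468 bases (quartiles 314 and 803) and a median level of 0.541 (0.251 and 1.75). The 310121 contigs of the same lengths that overlapped no opposite contig of at least 200 bases are called unpaired below. Their median length was 359 bases (278 and 533) and their median level 0.332 (0.187 and 0.941). Overlap with shorter opposite contigs was not counted, so some may be covered on both strands. Members were thus longer and more deeply covered at the median, with a coverage of 7.73 against 4.75. A longer contig has more bases in which an opposite contig can lie, so length is partly set by the rule. A further 2389 contigs overlapped an opposite contig of at least 200 bases by 1 to 99 bases. At the limits of the rule, the 39 members of 200 bases had a median level of 0.195, and the 33 contigs 1 base shorter that shared 100 bases had 0.151. The longest member stood at 3.80 and the 1 contig of exactly 3000 bases at 4.0. The 19 pairs that shared exactly 100 bases had a median level of 0.304, and the 17 that shared 99 had 0.199.

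The share of contigs that were members was compared over chromosomes 1 to 19 and X, and varied between them. It was lowest on chromosome X (271 of 7287 contigs of the same length range, 3.72%) and next lowest on chromosomes 1 (4.70%) and 6 (4.73%). Chromosome 11 had the highest share (2068 of 24583, 8.41%), followed by chromosomes 19 (7.61%) and 7 (7.42%).

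Members formed 11219 pairs of a plus and a minus contig. In 10639 pairs both contigs were members, and in 580 the partner was 3000 bases or longer. Most members (18955) had 1 partner and 1382 had 2 or more, up to 5. In the 10639 pairs of 2 members the overlap had a median of 295 bases (quartiles 223 and 413.5) and reached 2661 bases. In the other 580 its median was 400 bases.

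The contigs with the most RNA on both strands belonged to collagen genes. Gene names rest on spliced reads and not on position: a contig was tied to a gene when 2 successive junctions, at least 1 with an end in the contig, had exactly the intron, exon and intron lengths of 1 gene only on that chromosome and strand. On chr8:11312505-11313126 the plus contig of Col4a2 stood at 78.1, and the minus contig of Col4a1 on chr8:11311958-11313309 stood at 72.4. These genes encode the alpha chains of type IV collagen, the network of basement membranes, and are a textbook case of genes that share a start region. Their TPM, which is read abundance per transcript length on a scale that sums to the same total in each library, was 142 and 153 for Col4a2 and 235 and 244.6 for Col4a1 in replicates 1 and 2. Col4a1 was the higher of the pair in both libraries. No source used here says whether the gene quantification used strand, so for overlapping genes reads of the 2 strands may not be told apart in TPM. Labels call the libraries biological replicates but cite the same donor record, so spread between them may be technical.

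The second highest pair lay tail to tail. Ilk (integrin-linked kinase) had a contig at 61.1 on chr7:112888525-112890610, and Taf10 (a subunit of the general transcription factor TFIID) had one at 77.0 on chr7:112890511-112893027. They shared 100 bases. TPM of Ilk was 269 and 257, and that of Taf10 was 643 and 805, so the order was the same by both measures. Beyond the 100 bases, the Taf10 contig faced further plus-strand members, which the map of contigs around pairs shows.

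Of the other pairs at the top, 2 were tied to a gene on 1 strand only. The minus contig of Cyb5r3 (a cytochrome b5 reductase), chr15:82983925-82985269, stood at 204 and held inside it an untied plus contig at 54.5 that had a junction of its own. TPM of Cyb5r3 was 374 and 315. The plus contig of Plagl1 (an imprinted zinc finger factor), chr10:12846868-12848899, stood at 56.0 and held an untied minus contig of 284 bases at 43.8, with a junction end as well. TPM of Plagl1 was 87.0 and 70.2. The fifth pair was Ndufb7 (a subunit of respiratory complex I) at 41.2 on chr8:86093904-86095525 with Tecr (an enzyme of fatty acid elongation) at 97.7 on chr8:86095366-86098099, tail to tail over 160 bases. Their TPM differed by less than the spread between the libraries, at 533 and 397 for Ndufb7 and 534 and 400 for Tecr, and both were higher in replicate 1. The GENCODE M21 annotation lists no shared exon base for this pair, while the contigs overlapped.

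Further tail-to-tail pairs showed both a close balance and a wide gap. Nhp2 (a protein of H/ACA ribonucleoproteins) stood at 27.8 on chr11:51436393-51437414 and Rmnd5b (a ubiquitin ligase subunit) at 25.3 on chr11:51437169-51439679, over 246 shared bases. TPM of Nhp2 was 115 and 96.3, below that of Rmnd5b at 179 and 259 in both libraries, whereas the Nhp2 contig was slightly the higher. A pair on chr3:124088427-124088904 and chr3:124088563-124089020, tied to no gene, stood at 156 on the plus and 24.5 on the minus strand, with junctions on both.

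**Figure D1:**
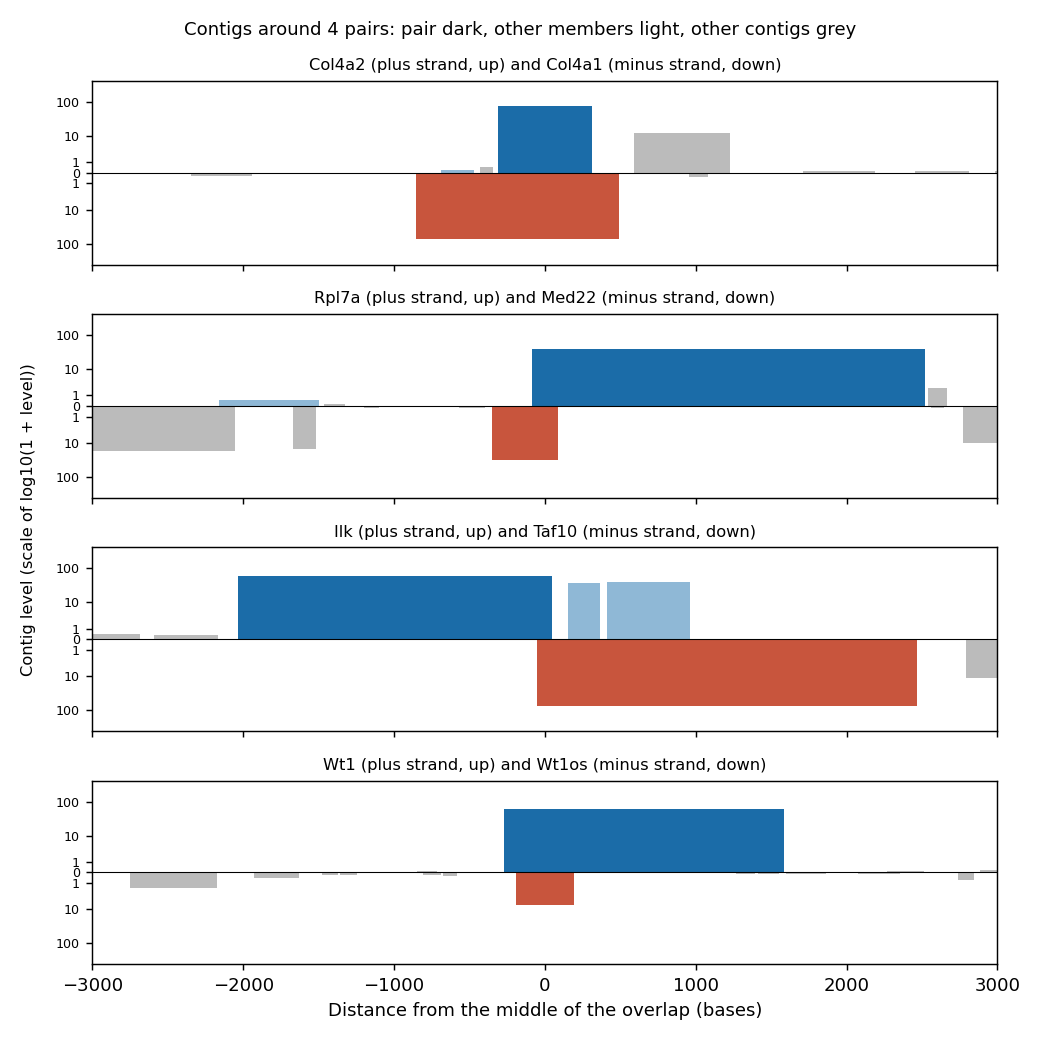
Contigs around 4 pairs, by distance in bases from the middle of the overlap (x axis) and level on a log10(1 + level) scale (y axis), with the plus strand drawn up and the minus strand down. Dark bars are the pair, light bars other members and grey bars other contigs. Col4a2 and Col4a1 reach nearly equal heights (78.1 and 72.4), Ilk and Taf10 meet at their ends over 100 bases, and the Wt1os contig (7.39) lies inside that of Wt1 (62.2).

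Among head-to-head pairs, the 4 highest weaker levels were all at pairs with a gene tied on both strands. Yrdc and 1110065P20Rik, at 34.6 (chr4:124527949-124529401) and 33.4 (chr4:124526731-124528627), shared 679 bases. Their TPM was 48.5 and 61.7 against 98.8 and 128, so the minus-strand gene was higher in both libraries while the contigs were nearly equal. Rpl7a (a protein of the large ribosomal subunit) stood at 40.8 on chr2:26766052-26768652, and Med22 (a Mediator subunit) at 32.9 on chr2:26765786-26766219. Here TPM differed far more than the contigs: Rpl7a had 1209 and 977, and Med22 54.2 and 52.9. Ssr4 (a translocon-associated protein) and Idh3g (a subunit of mitochondrial isocitrate dehydrogenase) stood at 29.7 (chrX:71032191-71033597) and 27.6 (chrX:71032027-71032456). TPM was 230 and 263 for Ssr4 and 352 and 284 for Idh3g, so the ranges of the 2 genes over the libraries did not overlap. Romo1 (a small mitochondrial membrane protein) stood at 71.3 on chr2:155969756-155970483 and Nfs1 (the cysteine desulfurase of iron-sulfur cluster assembly) at 23.6 on chr2:155969753-155970352, over 597 shared bases. Romo1 was also higher by TPM, at 356 and 319 against 72.5 and 77.1.

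Over the 10639 pairs of members, the weaker strand stood at a median of 28.8% of the stronger (log2 ratio -1.79, quartiles -2.94 and -0.83). The strands lay within 10-fold of each other in 8675 pairs (81.5%, exact 95% binomial interval 80.8% to 82.3%) and within 2-fold in 3175 (29.8%). Intervals cover counting over pairs only, and contigs of 1 gene are not independent. Over all 11245 pairs of any length, the shares were 79.8% and 28.9%, so those of the members lie near that background, which holds the members too. In 173 pairs (1.63%) the strands differed by more than 100-fold. The plus strand was the stronger in 5388 pairs (50.6%), and the levels were equal in 10. In the 580 pairs of a member with a contig of 3000 bases or more, the median was 8.97% and 47.9% lay within 10-fold.

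Pairs were sorted by how their contigs faced each other. The ends are those of contigs and not of transcripts, so the sorting need not match that of annotated genes. In 3609 pairs (33.9%) both 5′ ends lay in the overlap (head to head), in 2064 (19.4%) both 3′ ends did (tail to tail), and in 4966 (46.7%) one contig lay inside the other. Over all pairs of members, tail-to-tail pairs had the highest median ratio, at 37.3%, and 85.1% within 10-fold (83.5% to 86.6%). Head-to-head pairs had a median of 30.03% and 80.9% within 10-fold (79.6% to 82.2%), and pairs with one contig inside the other had 25.2% and 80.5% (79.4% to 81.6%). Tail-to-tail pairs were also the least covered, with a median stronger level of 0.799 against 1.72 head to head and 1.38 for nested contigs, and the ratio was higher where the stronger level was lower. The order was not the same in every class of pairs tied to genes. Where only the stronger strand was tied, the medians were 15.7% head to head, 15.6% tail to tail and 14.5% nested. Where both strands were tied, the medians were 31.9%, 37.1% and 31.2%, while 87.7% of head-to-head, 85.7% of tail-to-tail and 89.1% of nested pairs lay within 10-fold. Sorted by the annotation instead, the gene pairs defined further on gave 86.9%, 87.0% and 93.3%.

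**Figure D2:**
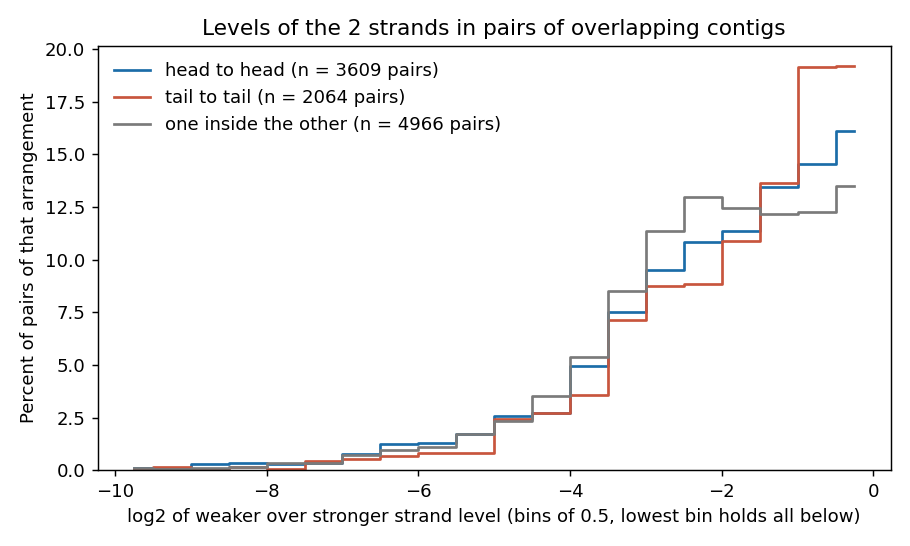
Percent of pairs of each arrangement (y axis) by the log2 ratio of the weaker over the stronger strand's level (x axis, bins of 0.5). Each line is 1 arrangement, and the median ratio over all pairs of members is 37.3% tail to tail against 30.03% head to head and 25.2% nested.

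The ratio was lower where the stronger strand was higher. Where the stronger contig was under a level of 0.3 (1100 pairs), the weaker stood at a median of 0.150, or 72.5% of it. From 1 to 3 (2931 pairs) the weaker was at 0.355 (21.5%), from 10 to 30 (852 pairs) at 1.08 (7.25%), and from 30 to 100 (242 pairs) at 1.32 (3.20%). In the 39 pairs with a stronger level of 100 or more it was at 0.395, which is 0.283% of the stronger. By construction the weaker cannot exceed the stronger, so a low stronger level leaves little range. Across the 10639 pairs, levels of the weaker and the stronger contig correlated with rho = 0.593 (Spearman) and, on the log2 scale, r = 0.606 (Pearson). Points of this description share the order imposed on each pair and the library depth.

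**Figure D3:**
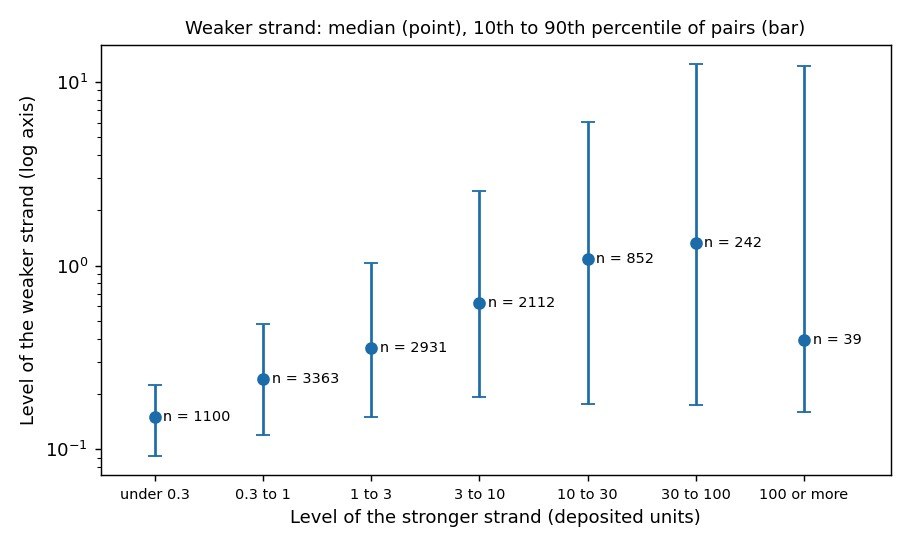
Level of the weaker contig (y axis, log scale) in bins of the level of the stronger contig (x axis). Points are medians over pairs and bars run from the 10th to the 90th percentile. The median goes from 0.150 to 1.32 over the first 6 bins and is 0.395 in the last, which holds 39 pairs.

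The most uneven pairs whose weaker contig still reached the median level of members all lay head to head and each had a contig of an abundant gene as the stronger. Pdia3 (a disulfide isomerase of the endoplasmic reticulum) stood at 474 on chr2:121239268-121240081, and the head-to-head contig of Catsper2 (a subunit of the sperm calcium channel) at 1.34 on chr2:121238894-121239537. That is 0.283% of the stronger strand. TPM was 1929 and 3322 for Pdia3 and 1.54 and 1.02 for Catsper2. Tm9sf2 (a multispanning membrane protein) stood at 179 on chr14:122506007-122507006 against 0.724 on the other strand (0.404%), where no junction was listed. Plxnd1 (a semaphorin receptor) stood at 187 on chr6:115943258-115945202 against 0.763 (0.408%), with a junction on the weaker strand. Aldoa (a glycolytic aldolase) stood at 188 on chr7:133940810-133943440 against 0.775 (0.412%), with none.

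At the other end were pairs of equal level. A contig of Srcap (a chromatin remodelling ATPase) on chr7:134655511-134656560 and an untied minus contig that overlapped it head to head over 889 bases both stood at 3.14, with junctions on both strands. Equal pairs tied to no gene stood at 1.06 on chr11:4464078-4464527, at 0.642 on chr2:156677412-156678119 and at 1.02 on chr7:134174680-134175355. The longest overlap, 2661 bases, lay at Surf2 on chr2:26772814-26775687, where the plus contig stood at 2.50 and the minus contig inside it, without a junction, at 0.595. The next longest, 2162 bases, was at Smarcd3 (a subunit of BAF chromatin remodelling complexes), whose contig on chr5:24100286-24102447 stood at 7.86 against 1.85. At Kmt2e (a protein of the lysine methyltransferase family) the contigs of chr5:22938775-22941360 and the opposite strand were almost level at 5.97 and 6.62 over 2089 bases.

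Splice junctions are a readout that the choice of members did not use. Of the contigs that were the weaker in every pair they were in, 2828 of 9914 had a junction end of their own strand inside them or within 2 bases (28.5%, 27.6% to 29.4%). Of those that were always the stronger it was 6156 of 9482 (64.9%, 64.0% to 65.9%). All contigs of that length range had 32.1% and the unpaired ones 31.1%, so weaker contigs lay near the background and stronger ones above it. With junctions of at least 10 reads only, the shares were 6.82% of weaker, 44.1% of stronger and 20.2% of unpaired contigs, which puts the weaker ones clearly below. The stronger contigs were also the better covered, at a median of 18.4 sequenced bases per base against 4.29.

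Within bins of equal level, with all junctions, the gap was smaller. Below a level of 0.3, a junction stood in 12.6% of weaker, 14.3% of stronger and 7.40% of unpaired contigs. From 0.3 to 1 the shares were 34.0%, 41.5% and 25.2%, from 1 to 3 they were 68.4%, 77.1% and 69.2%, and from 3 to 10 they were 89.2%, 94.1% and 92.7%. Weaker contigs were thus above the unpaired ones below a level of 1, near them from 1 to 3 and below them from 3 to 10. Stronger contigs were above the unpaired ones in each of these 4 bins. The bins match level and not length. Median lengths over all levels were 376 bases for weaker, 631 for stronger and 359 for unpaired contigs, and a longer contig has more room for a junction end. The part of length in these differences was not tested.

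**Figure D4:**
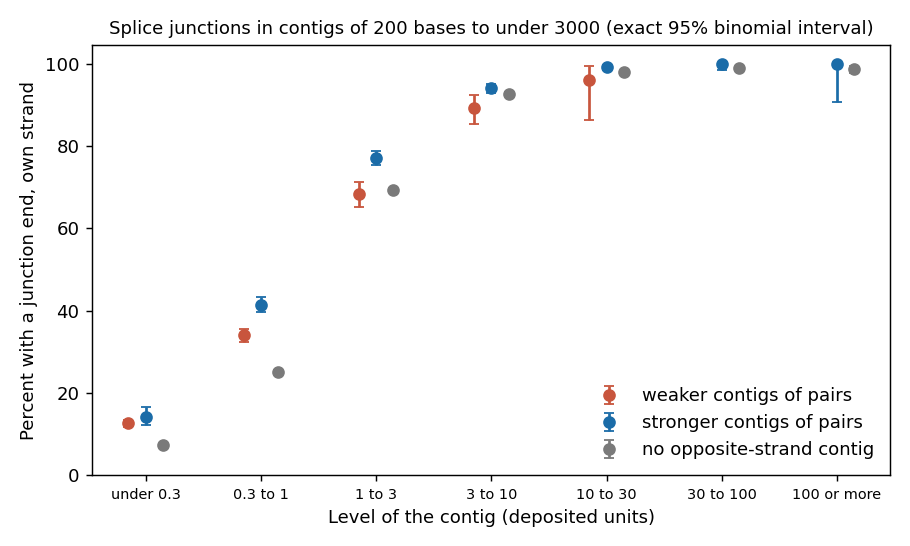
Percent of contigs with a junction end of their own strand (y axis) by level of the contig (x axis), with exact 95% binomial intervals. Shown are weaker members, stronger members and unpaired contigs, which overlap no opposite-strand contig of at least 200 bases. From 0.3 to 1, weaker and stronger members stand at 34.0% and 41.5% against 25.2% of unpaired contigs, and from 3 to 10 the weaker ones lie below them (89.2% against 92.7%). Points over fewer than 20 contigs are left out.

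In 2546 pairs (23.9%) both strands had a junction, in 4382 (41.2%) the stronger alone, in 603 (5.67%) the weaker alone and in 3108 (29.2%) neither. Junctions on both strands were most frequent head to head (1059 pairs, 29.3%), then in nested pairs (1132, 22.8%) and tail to tail (355, 17.2%). Pairs with a junction on the stronger strand alone had the lowest ratio, at a median of 16.8%, and those with a junction on the weaker strand alone the highest, at 59.1%. Junctions were listed more often in contigs of higher level, and the ratio was higher where the stronger level was lower. The part of level in this order was not tested. The table listed 438382 junctions, and 243 intron positions were listed on both strands (0.0555% of the distinct positions). All junctions were of that kind in 5 of the 2828 weaker contigs with a junction. These counts concern junctions only, and how often a read was given the wrong strand was not tested.

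By spliced reads 5331 members (26.2%) were tied to 1 gene, against 22.8% of all contigs of that length range, and 34 that matched several genes were left out. They belonged to 3787 genes, of which 3634 were protein-coding, 64 antisense, 49 processed transcripts and 16 lincRNAs. Of the 3759 found in the gene tables, 3537 had a TPM of at least 1 in both libraries (94.1%), against 32.8% of the 43346 genes of those tables. A tie needs spliced reads, so a high share is set in part by the naming itself. A gene was tied on both strands in 433 pairs (4.07%), on 1 strand in 4795 (45.1%) and on neither in 5411 (50.9%). Where 1 strand was tied, it was the stronger in 4336 pairs and the weaker in 459.

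The 433 pairs held 389 different gene pairs. In the annotation, 244 were head to head, 115 tail to tail and 30 had 1 gene inside the other. The contigs were arranged in the same way as the genes in 185 of the 244, 53 of the 115 and 15 of the 30. Exons of both genes shared bases in 271 gene pairs (69.7%): in 140 of the head-to-head, 105 of the tail-to-tail and 26 of the nested ones. A further 95 head-to-head gene pairs lay apart in the annotation, by a median of 85 bases, although their contigs overlapped. RefSeq starts were found for both genes in 162 head-to-head pairs. They overlapped or touched in 56 pairs, lay 1 to 300 bases apart in 79 and more than 300 apart in 27.

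In 308 gene pairs both genes were protein-coding, with a median ratio of 34.5% and 270 within 10-fold. In 80 pairs a protein-coding gene faced a gene that GENCODE M21 gives another class, with a median of 29.5% and 69 within 10-fold. The contig of the gene of the other class was the weaker in 62 of the 80. These classes include antisense genes, processed transcripts and pseudogenes, and whether such a gene codes for a protein was not tested. Of the 736 different genes, 699 had a TPM of at least 1 in both libraries, and the median TPM was 25.5 in replicate 1 and 24.6 in replicate 2. The gene with the higher contig was also the higher by mean TPM in 255 of the 376 gene pairs measured (67.8%). Across the 341 gene pairs with a TPM of at least 1 throughout, the log2 ratio of the plus over the minus gene correlated between contig level and mean TPM with r = 0.490 (Pearson) and rho = 0.436 (Spearman). These points share libraries and, in part, genes. A contig covers only part of a gene, and the tables came from different builds. Between the libraries the ratio by TPM differed by a median of 0.28 on the log2 scale, and in 25 of the 341 gene pairs the libraries disagreed on which gene was higher.

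Of the gene pairs with the highest TPM of the lower gene, some were described above. Tmem176a and Tmem176b, membrane proteins of 1 family, had contigs at 19.2 (chr6:48791114-48791869) and 14.2 (chr6:48790040-48791457), head to head. Tmem176b was the higher by TPM, at 510 and 351 against 256 and 205. Ctsa (a lysosomal carboxypeptidase) at 24.1 and Pltp (phospholipid transfer protein) at 41.9 overlapped at their 3′ ends in the annotation, on chr2:164664020-164666441. Here Ctsa was the higher by TPM, at 372 and 249 against 197 and 165. Nt5dc2 (a nucleotidase domain protein) had a contig at 30.8 on chr14:31949724-31952311, and Stab1 (a scavenger receptor of endothelium and macrophages) one at 5.15 on chr14:31951965-31952607. Their TPM did not separate them, at 149 and 105 for Nt5dc2 and 142 and 149 for Stab1.

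Fuz (a planar polarity effector of cilia) and Ap2a1 (a subunit of the clathrin adaptor AP-2) stood at 36.0 and 11.0, tail to tail over 1191 bases of chr7:52153689-52156231. TPM was 124 and 137 for Fuz and 126 and 126 for Ap2a1, which differed in order between the libraries.

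Named opposite-strand transcripts were listed by symbol and not by annotated class. In GENCODE M21, Cdiptos is classed as protein-coding and Abhd11os as a transcribed pseudogene. The annotation held 297, of which 18 were tied to a member and 12 of these together with the gene they face. Of all 43346 genes of the gene tables, 3759 were tied to a member. These sets come from different GENCODE releases, and whether their shares differ was not tested. At Wt1, a transcription factor of gonadal somatic cells, the gene's contig stood at 62.2 on chr2:104966334-104968189 and that of Wt1os, inside it, at 7.39. TPM of Wt1 was 200 and 211, and that of Wt1os was 3.39 and 2.43. At Emx2, a homeobox factor of the urogenital tract, the contig stood at 35.8 on chr19:59532880-59534784, and Emx2os at 7.77 head to head. TPM was 30.6 and 47.2 for Emx2 and 4.21 and 4.10 for Emx2os. In both pairs the gene exceeded its opposite-strand transcript in each library.

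Tmem147os stood at 1.92 against 62.3 for Tmem147 (chr7:31512720-31514715), a membrane protein of the endoplasmic reticulum, with a TPM of 14.6 and 10.3 against 292 and 255. Abhd11os stood at 1.55 inside the contig of Abhd11 at 13.7, and Cdiptos at 0.337 inside that of Cdipt (phosphatidylinositol synthase) at 15.1. Closer levels were seen at Hk1 (a hexokinase), where Hk1os stood at 1.34 and Hk1 at 1.58, and at Kcnd3 (a potassium channel), where Kcnd3os stood at 1.92 and Kcnd3 at 3.35. By TPM Hk1os was 1.93 and 0.73 against 35.0 and 38.5 for Hk1, so its near-equal contig did not go with a near-equal gene level. TPM of Kcnd3os was likewise far lower, at 1.27 and 2.01 against 28.45 and 23.4 for Kcnd3.

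Among the 12 tied together with their gene, Rab10os was the exception in TPM. Its contig stood at 0.411 on chr12:3249736-3250364, against 4.44 for Rab10 (a GTPase of membrane traffic), yet its TPM was 119 and 95.1 against 28.4 and 42.9. The contigs overlapped head to head, whereas the annotation places both genes tail to tail with 143 shared exon bases. The remaining pairs were lower on the opposite-strand transcript by both measures. Rptoros stood at 1.44 against 4.62 for Rptor (a subunit of mTORC1), Dhx58os at 0.945 against 4.46 for Dhx58 (an RNA sensor), Mccc1os at 0.776 against 1.63 for Mccc1 (a mitochondrial carboxylase subunit), and Zeb2os at 0.420 against 2.88 for Zeb2 (a zinc finger repressor). TPM of Zeb2os was 0.27 and 0.54 and that of Mccc1os 0.23 and 0.28, the lowest of the 12. Of the transcripts tied without their gene, Wdr83os (160 and 132 against 37.9 and 35.0) and Cebpzos (2.79 and 2.15 against 1.91 and 1.78) also exceeded it by TPM. Hoxb5os, Mypopos, Slc7a6os and Tnfsf13os lay below their gene in both libraries.

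**Figure D5:**
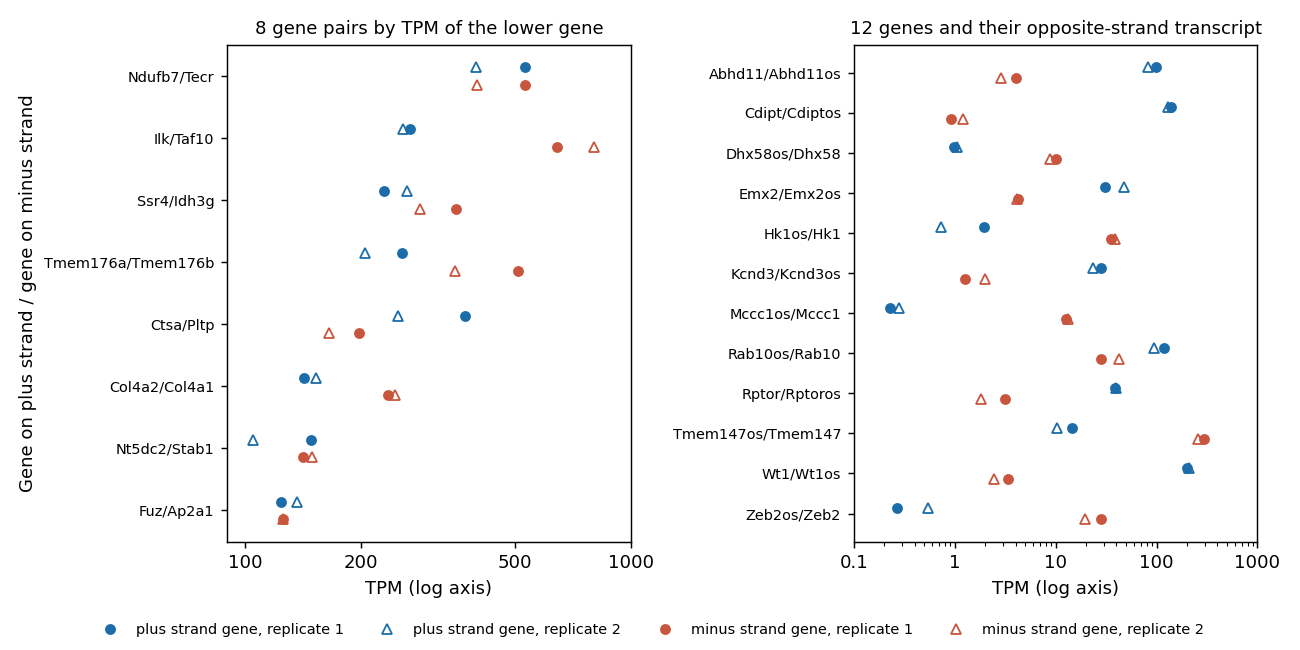
TPM (x axis, log scale) in replicate 1 (filled circles) and replicate 2 (open triangles) of the genes of each pair, with the plus-strand gene in blue and the minus-strand gene in red. On the left, 8 gene pairs with a high TPM of the lower gene lie within a few fold of each other. On the right are the 12 genes tied together with their opposite-strand transcript. Of these, 11 exceed it in both libraries, Rab10 being the exception.

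The estimated counts of all genes came to 41124064 for replicate 1 and 34930872 for replicate 2. Markers of granulosa cells, theca and luteal cells and the oocyte were all present, from Bmp15 at 6.53 and 5.54 TPM to Inha at 7396 and 6279. Markers of oviduct (Ovgp1 at 627 and 528, Foxj1 at 112 and 137) and fat (Cfd at 2081 and 2772, Adipoq at 132 and 136) were present too, and their part in the results was not tested. In whole tissue, fewer cells of a type and less RNA per cell cannot be told apart. Among these markers only Star, which carries cholesterol into mitochondria for steroid synthesis, was tied to members. Its contigs stood at 6.61 on chr8:26918276-26919105 and 45.8 on chr8:26922977-26924944, and the opposite contigs, without a junction, at 0.169 head to head and 0.686 tail to tail. TPM of Star was 123 and 93.1.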

How the data were processed

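Polyadenylated RNA of mouse ovary was measured in 2 libraries of 1 group. The authors deposited a contig table on mm9 with a signal level per contig, the sum of sequenced bases, and a score whose meaning is not given. The authors deposited a junction table on mm9 with a count of reads and a score per junction. The authors deposited TPM and expected counts per gene on mm10 with GENCODE M4, per the accompanying notes. Aligner, quantifier and contig caller: not given in the sources used here.

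Contigs of opposite strand with at least 100 shared bases were paired. Members, lists and rules were chosen with earlier results of these data known. Named regions exclude chromosomes 18, M and Y. They are the 5 pairs with the highest weaker level, the 4 such pairs tail to tail and the 4 head to head, the 4 lowest and 4 highest ratios at a weaker level of at least the members' median, and the 3 longest overlaps. Named genes are those tied to them, the 10 gene pairs with the highest TPM of the lower gene and the opposite-strand transcripts tied to a member. Of the 10 gene pairs, 2 are not reported here. Genes were tied by exact lengths of 2 junctions and the exon between them in GENCODE M21, with no coordinate carried between builds. A total of 143326 such chains matched 1 gene, and 441 (0.308%) did so with the exon length changed by 1 base. Promoters were matched by symbol in the RefSeq table. Scripts were tested on simulated data. Python 3.11.15, numpy 2.4.6, pandas 2.3.3, scipy 1.17.1 and matplotlib 3.10.9 were used.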

Additional observations from a re-analysis of the deposited data

How the results depend on the processing

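Each contig has 1 value, so intervals cover counting only and weak coverage limits what is listed: weaker contigs held a median of 21.9 read lengths of sequence. The number of members was 13174 with a minimum length of 300 bases, and between 17590 and 21463 under the other settings. The share of pairs within the fold limit was 62.3% at 5-fold, 91.0% at 20-fold, 82.4% with 200 shared bases, 82.6% with 300 bases of length and 94.6% where the overlap covered 80% of both contigs. The median log2 ratio was -1.74 in pairs with 1 partner each and -1.25 at 80% coverage. With 50 and 200 shared bases, head-to-head pairs made up 35.7% and 29.8%, tail-to-tail pairs 20.7% and 15.3%, and nested pairs 43.5% and 55.0%. Weaker contigs with a junction were 6.82% with at least 10 reads, 26.6% with the end strictly inside and 9.73% with the A flag, whose meaning is not given. For stronger contigs these were 44.1%, 62.9% and 49.2%, and for unpaired contigs 20.2%, 29.8% and 23.5%. Weaker contigs thus fell below unpaired ones at 10 reads and with the flag. Leaving out junctions listed on both strands, chosen after seeing the data, gave 28.5% and 64.9%. With 1 library alone the median TPM of paired genes was 24.595 to 25.485, and 256 to 259 gene pairs had the same gene higher by both measures. The cause of these shifts was not tested. No paired analysis was possible because there is 1 group.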
